A study of Drosophila melanogaster with 8 samples.

Results

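The H1-enriched regions described here lie along the right arm of chromosome 3 (3R) of Drosophila melanogaster, outside its end zones, a long densely covered block and the Hox complexes. They are the regions of the authors' combined list on 3R whose midpoint falls at 0.4 to 23 Mb or 25 to 26.9 Mb on FlyBase release 5, leaving out midpoints at 2.48 to 2.84 Mb (the Antennapedia complex) and 12.48 to 12.81 Mb (the bithorax complex). No score, width or replicate value was used to choose them. The rule kept 3069 regions, 18.96% of the 16190 in the combined list and most of the 3679 on the whole arm. It left out 351 regions at 23 to 25 Mb, 40 and 42 at the Antennapedia and bithorax complexes, 38 at the centromere-side end and 139 at the telomere-side end. What remains is 23.8 Mb of sequence in 4 stretches, called A to D from the centromere outward.

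Histone H1 is the linker histone: it binds the nucleosome where DNA enters and leaves, and it helps to fold nucleosome arrays into compact chromatin. In Drosophila H1 is needed for the structure of heterochromatin and for silencing of transposable elements. On gene-rich chromosome arms it is found widely, so a list of enriched regions marks where the signal stood out and not every place where H1 is bound.

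H1 was mapped by ChIP-seq, sequencing of DNA precipitated with an antibody from crosslinked chromatin, in wild-type Oregon-R embryos aged 14 to 16 h. There are 8 libraries, 4 of H1 immunoprecipitates and 4 of input chromatin, with no other genotype or treatment. Embryos are whole animals, so all tissues of this stage are pooled. The labels do not tell whether replicates come from separate embryo collections, so the p-values below measure only the spread between these samples, part of which may be technical. Each immunoprecipitate has its own list of enriched regions, and the combined list is the authors' list for the set. The lists hold no read counts, so depth is unknown.

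Replicates 1 to 4 had 574, 458, 571 and 702 regions in the 4 stretches, a mean of 576.25 ± 99.7 (SD, n = 4). This was 20.4% ± 0.49 of each whole list (SD, n = 4). They covered 4.01%, 3.22%, 3.94% and 4.94% of the sequence, a mean of 4.03% ± 0.71 (SD, n = 4). Replicate 2 was the thinnest list and replicate 4 the fullest. The combined list covered 24.9%, which was 6.18 times the mean of the replicates.

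The regions were unevenly spread along the arm. In windows of 100 kb, of which 236 lay whole within the stretches, the combined list covered between 0.48% and 74.0%, with a median of 21.0% and an SD over windows of 17.0 percentage points. The 24 most covered windows, the upper 10%, held 24.3% of all covered bases, and the 24 least covered windows held 1.28%. These are called dense and sparse windows below. A dense window held 25.5 regions on average, a sparse one 2.08, and one of the 188 in between 12.6.

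The same spread was seen at smaller and larger scale, and narrowed as windows grew. At 50 kb the covered share ran from 0% to 84.3% over 474 windows, with an SD of 19.9 points. At 200 kb it ran from 3.78% to 62.1% over 117 windows, with an SD of 13.7 points. No window of 200 kb lacked regions in all 4 replicate lists, whereas 11 windows of 100 kb and 76 of 50 kb did. All 4 lists had covered bases in 28.1% of windows at 50 kb, in 50.8% at 100 kb and in 82.1% at 200 kb. The number of combined regions per window varied more than its mean at each scale, with a variance 2.90, 3.99 and 5.29 times the mean at 50, 100 and 200 kb.

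**Figure D1:**
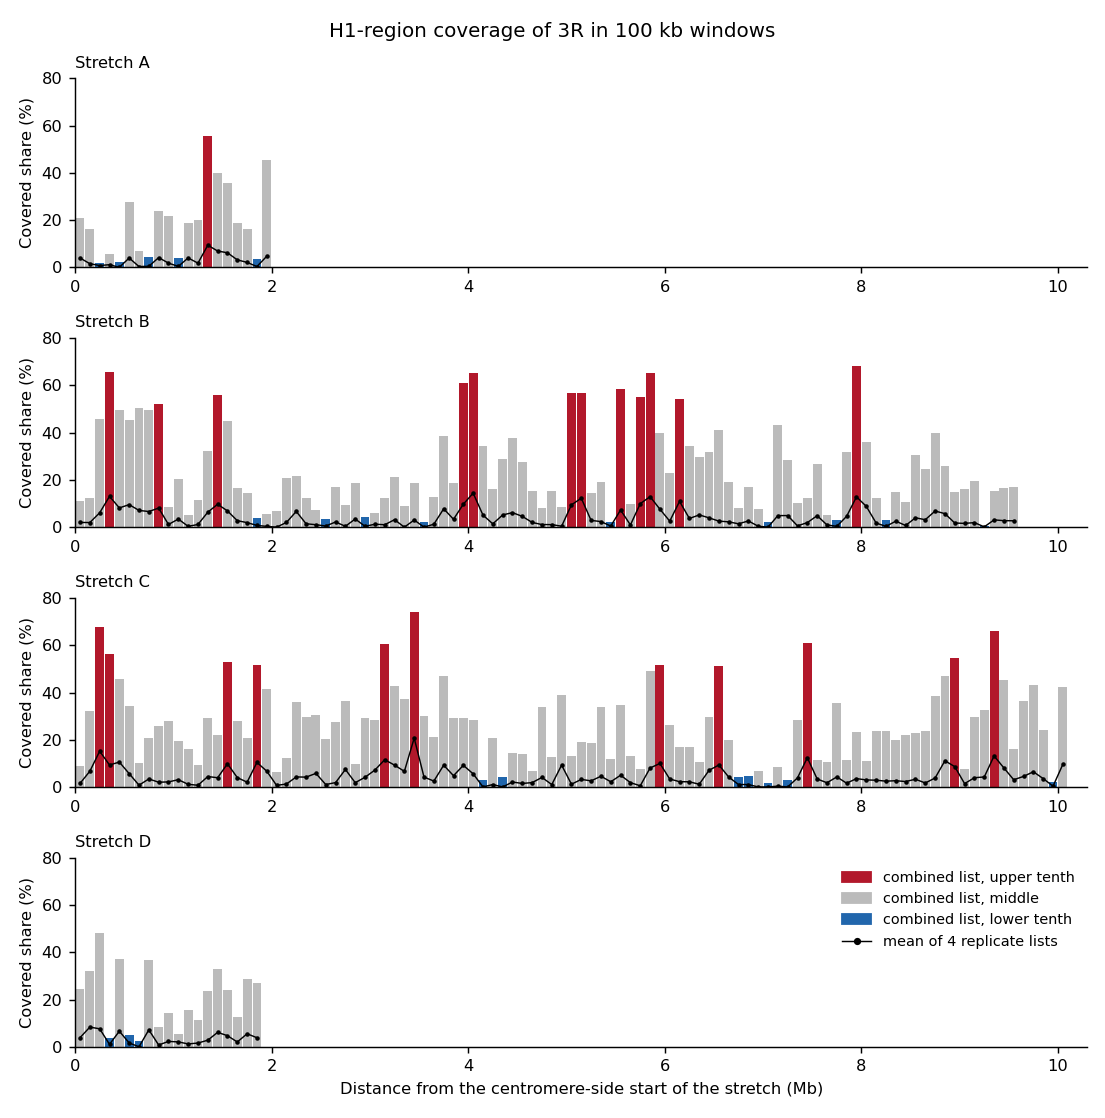
Share of each 100 kb window covered by H1 regions (%) against the distance from the centromere-side start of the stretch (Mb), for stretches A to D. Bars are the combined list, with the 24 dense windows in red and the 24 sparse windows in blue, and the black line is the mean of the 4 replicate lists. The line rises where the red bars stand, far below them in level, and lies between 0% and 1.63% at the blue bars.

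The most covered window of 100 kb was 3R:16210001-16310000 in stretch C, at 74.0% in the combined list with 25 region midpoints. It was covered at 18.9%, 17.9%, 20.9% and 25.03% in replicates 1 to 4. Each value was several times the same replicate's share of the whole 3R sequence. Its first part, 3R:16210001-16260000, was also the most covered window of 50 kb, at 84.3% in the combined list and 23.3%, 15.8%, 24.97% and 31.1% in the replicates. Most of the bases marked inside the window lay in 1 list only. The overlap that placement alone would give to lists covering 17.9% to 25.03% of the window was not computed. Together the 4 replicate lists covered 53.4% of it, and of these bases 59.5% lay in 1 list, 28.2% in 2, 10.2% in 3 and 2.123% in all 4, which was 1134 bp.

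The next dense places showed more spread between replicates. In stretch B, 3R:10740001-10840000 stood at 68.4% in the combined list and at 19.4%, 10.7%, 12.8% and 8.40% in replicates 1 to 4. In stretch C, 3R:13010001-13210000, a pair of adjoining dense windows, stood at 62.1% and at 8.17%, 12.9%, 9.04% and 18.8%. It was also the most covered window of 200 kb. Further out in stretch C, 3R:22110001-22210000 stood at 66.0% and at 11.6%, 4.66%, 13.7% and 22.6%. Near the start of stretch B, 3R:3140001-3240000 stood at 65.9% and at 6.05%, 9.29%, 20.8% and 16.0%. No replicate was the highest or the lowest in all of these places, and every value was above that replicate's share of the whole 3R sequence.

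Smaller and larger windows added 4 more dense places or outlines. At 50 kb, 3R:3190001-3240000 was covered at 81.5% in the combined list and at 10.3%, 5.02%, 17.95% and 18.4% in replicates 1 to 4. Also at 50 kb, 3R:10790001-10840000 was covered at 76.2% and at 22.9%, 16.6%, 20.5% and 16.8%. Both lie within dense windows of 100 kb named above. At 200 kb, 3R:7840001-8040000 was covered at 56.8% and at 9.71%, 10.5%, 11.5% and 11.7%, the closest replicate values of the named dense windows. Also at 200 kb, 3R:3040001-3240000 was covered at 55.7% and at 8.00%, 7.12%, 13.5% and 9.67%.

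Most sparse windows held few or no regions of the replicates. Of the 24, 8 had no covered base in any replicate list, and the replicate mean had a median of 0.34% and reached 1.63% at 3R:25500001-25600000 in stretch D. That window stood at 4.86% in the combined list and at 4.95% in replicate 2, above the 3.22% of that replicate over the whole 3R sequence. The least covered 100 kb window, 3R:12040001-12140000 in stretch B, stood at 0.48% in the combined list, at 0% in replicates 1 to 3 and at 0.48% in replicate 4. No replicate had covered bases in 3R:19810001-19910000 in stretch C, at 1.503% in the combined list, nor in 3R:800001-900000 in stretch A, at 2.05%. In stretch A, 3R:600001-700000 stood at 1.80% in the combined list, at 1.64% in replicate 1, 1.43% in replicate 3 and 0% in replicates 2 and 4. In stretch B, 3R:8240001-8340000 stood at 2.13%, at 1.86% in replicate 2 and at 0% in the others. A share of 0% here means that no region was listed, not that H1 was absent.

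At 50 kb the combined list covered no base of 26 windows, and the first 3 along the arm all lie in stretch A. Of these, 3R:800001-850000 and 3R:1100001-1150000 were empty in the 4 replicate lists as well. The window 3R:600001-650000 was covered at 2.85% in replicate 3 and at 0% in the others. At 200 kb the least covered window was 3R:600001-800000, at 3.78% in the combined list and at 0.82%, 1.36%, 1.58% and 0% in replicates 1 to 4. Then came 3R:10440001-10640000 at 4.01%, with 0.84%, 1.04%, 0% and 0.70%, and 3R:4640001-4840000 at 4.86%, with 0.70%, 0.75%, 0.66% and 0%. Each of these 3 windows of 200 kb was thus empty in 1 replicate list and held 1 or 2 regions in the others.

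The dense windows seldom adjoined each other, and the same held for the sparse ones. The 24 dense windows formed 20 separate places, none longer than 2 windows, and the 24 sparse windows formed 22. From a dense window the nearest sparse one lay a median of 450 kb and at most 3800 kb away, 13 of the 24 dense windows had one within 500 kb, and 1 adjoined one. Windows of 1 kind also followed each other at a distance: the 6 dense windows from 3R:13010001-13110000 to 3R:16210001-16310000 had no sparse one between them, and the 4 sparse windows from 3R:19510001-19610000 to 3R:20010001-20110000 had no dense one. The first run holds only at 100 kb, since inside it 3R:14810001-15010000 was sparse at 200 kb, at 9.26%. The distances and runs that placement alone would give were not computed. Stretch D, the outermost, had 3 sparse windows and no dense one among 19, which depends on where windows start: at 50 kb, both of the adjoining windows that make up 3R:25150001-25250000 in stretch D were dense, at 57.3% and 57.5%. Stretch A had 5 sparse windows and 1 dense one among 20, stretch B had 9 and 12 among 96, and stretch C had 7 and 11 among 101.

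The dense windows above were chosen from the combined list, which is not independent of the replicates, so whether a replicate repeats the pattern was measured on windows chosen without it. Windows were ranked by the mean covered share of the other 3 replicate lists, and the 24 highest and the 24 lowest were read in the list left out. In replicates 1 to 4 the dense windows so chosen were covered at 9.06%, 8.74%, 11.3% and 11.7%, a mean of 10.2% ± 1.54 (SD, n = 4). The sparse ones were covered at 0.27%, 0.32%, 0.29% and 0.75%, a mean of 0.41% ± 0.23 (SD, n = 4). In each replicate the dense value lay above its share over all windows and the sparse value below it. All windows together stood at 4.01% ± 0.70 (SD, n = 4).

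The log2 ratio of dense to sparse windows was 5.08, 4.77, 5.30 and 3.97 in replicates 1 to 4, a mean of 4.78 ± 0.58 (SD, n = 4), which is 27.5-fold. It was positive in 4 of 4 replicates, and the exact two-sided sign-flip permutation test gave p = 0.13, the smallest that 4 replicates allow, so no comparison of this kind could pass 0.05. Of the 24 sparse windows, 14 to 20 had no covered base in the list left out, so the ratio rests on 4 to 11 regions per list. The ratio of dense to all windows does not rest on near-empty windows and was 1.35 ± 0.16 on the log2 scale (SD, n = 4), or 2.55-fold. With any 1 replicate removed, 2 lists are left for the ranking. The dense to sparse log2 ratio was then 3.52, 3.58, 3.46 and 4.21 without replicates 1, 2, 3 and 4 in turn. In windows of 200 kb it was 3.09 with all 4 replicates, and every other setting tried gave less than 4.78.

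The labels carry experiment numbers that fall into a pair for replicates 1 and 2 (1715 and 1725) and a pair for replicates 3 and 4 (2291 and 2292). Ranking windows by both replicates of the other pair gave dense to sparse log2 ratios of 3.39, 3.39, 4.69 and 3.33 in replicates 1 to 4. Ranking by the 1 other replicate of the same pair gave 2.87, 2.47, 3.12 and 2.63. The contrast was therefore seen across the pairs as well as within them, and the number of lists used for the ranking differs between the 2 settings. At 100 kb, 51, 65, 58 and 42 windows had no covered base in replicates 1 to 4. Ranked by 1 replicate, the 24 sparse windows were thus only a part of those tied at 0. That part was taken in order along the arm from the centromere outward, not by coverage. Windows empty in both lists are likewise tied when 2 lists rank them, also with 1 replicate removed.

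**Figure D2:**
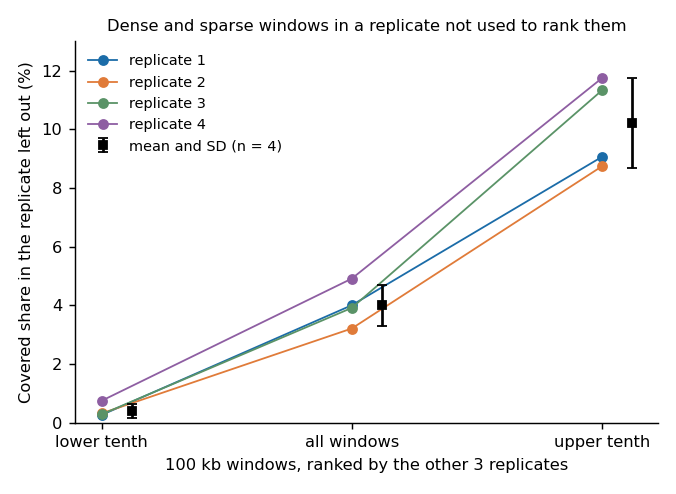
Share of bases covered (%) in the replicate left out, for the 24 lowest, all 236 and the 24 highest windows of 100 kb ranked by the other 3 replicates. Coloured points joined by lines are the 4 replicates and black squares with bars are their mean and SD. Each line rises from under 1% to between 8.74% and 11.7%.

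Over all 236 windows the covered shares of 2 replicates were correlated at Pearson's r of 0.59 to 0.69 for the 6 pairs of replicates, with a mean of 0.65, and at Spearman's rho of 0.57 to 0.66. The mean r was 0.57 over windows of 50 kb and 0.72 over windows of 200 kb. Pairs within an experiment pair had a mean of 0.63 and pairs across had 0.66 at 100 kb. These values describe windows of 1 chromosome arm, which are not independent of each other and share base composition and the same genome alignment, so no p is given.

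Likeness between 50 kb windows fell with distance. In the combined list, adjoining 50 kb windows had r = 0.48 over 470 pairs, windows 100 kb apart 0.20 and windows 150 kb apart 0.075. The replicate lists, taken singly, gave a mean r of 0.32 ± 0.05 (SD, n = 4) for adjoining windows, 0.11 ± 0.02 at 100 kb and 0.019 ± 0.046 at 150 kb. From 150 to 500 kb no value of the combined list was above 0.075, and single replicates ran from -0.077 to 0.106. Over windows of 200 kb the combined list had r = 0.19 at 200 kb and 0.14 at 400 kb, and the replicates had -0.02 to 0.24 and 0.07 to 0.16, so some likeness was seen over longer distances at that scale. The fall with distance among 50 kb windows was thus seen in the full combined list and in each short replicate list, at a lower level in the latter.

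**Figure D3:**
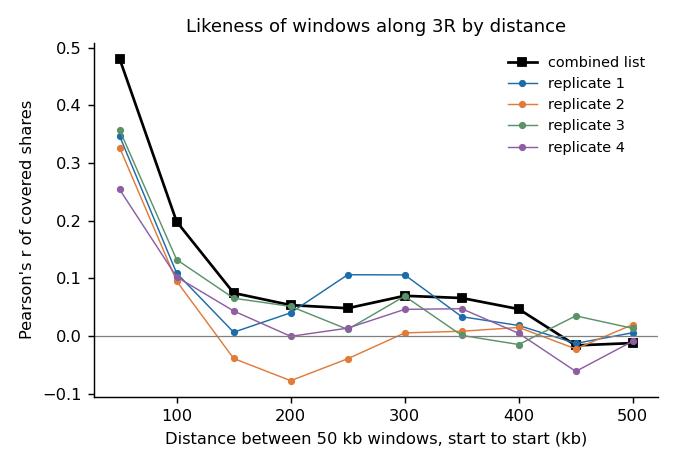
Pearson's r of the covered shares of 50 kb windows against the distance between them, start to start (kb), within stretches. The black line is the combined list and the coloured lines are the replicate lists. The combined list falls from 0.48 at 50 kb to 0.075 at 150 kb, and the replicates start between 0.25 and 0.36.

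Spacing showed the same clumping region by region. Between neighbouring regions of the combined list the 3065 gaps had a median of 1730 bp, with quartiles of 597 and 4977 bp, and a mean of 5819 bp, 3.36 times the median. Gaps under 1 kb made up 35.2%, or 1079, and 1 pair of regions abutted. At the other end, 53 gaps were longer than 50 kb and 9 longer than 100 kb. These 53 gaps took up 16.5% of the sequence. The coefficient of variation of the gaps was 2.10.

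The replicate lists, with fewer regions, had longer gaps, with medians of 16340, 20062, 14960 and 11612 bp in replicates 1 to 4. The order followed the number of regions except that replicates 1 and 3, with nearly equal numbers, differed by over 1 kb. Their coefficient of variation was 1.58 ± 0.11 (SD, n = 4), and the longest gaps were 589, 595, 537 and 726 kb. In the combined list the median gap was 1883 bp on 2L, 2199 bp on 3L and 2807 bp on X, each longer than on 3R. In the replicate lists 2L had no common direction, with medians of 15760, 21832, 15875 and 11569 bp in replicates 1 to 4, shorter than on 3R in replicates 1 and 4. Spacing depends on what counts as a region: after merging regions under 500 bp apart the median on 3R was 2712 bp, and among the higher-scoring regions, those with a score not below the median of their list, it was 8324 bp.

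All 5 of the longest gaps lay in stretch B. The longest, 3R:5688144-5821131, was 132988 bp and had no region in any replicate list, and 3R:11081304-11202373 (121070 bp) and 3R:10467300-10578208 (110909 bp) had none either. In 3R:12017678-12139519 (121842 bp) replicate 4 had 1 region, and in 3R:8219776-8337759 (117984 bp) replicate 2 had 1. By stretch, gaps over 50 kb numbered 5, 22, 21 and 5 in A to D, or 2.40, 2.28, 2.06 and 2.62 per Mb, so they were no more frequent per Mb in B. Over the 53 gaps together, replicates 1 to 4 had 8, 4, 11 and 6 regions that reached into them, covering 0.027%, 0.119%, 0.356% and 0.065% of the gaps.

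Beside the long gaps, coverage from 5 to 50 kb away was below the level of the whole sequence in the combined list. The same held for the replicate mean, though not for every replicate. The whole sequence includes the gaps themselves, 16.5% of it, so its level lies below that of the sequence outside the gaps. The level outside the gaps was not computed, so values above the whole-sequence level need not exceed it. The first 5 kb outside a gap hold the bordering region by construction, at 41.5% in the combined list. Beyond that the combined list covered 21.2% at 5 to 10 kb, 22.9% at 10 to 20 kb, 22.5% at 20 to 30 kb and 23.9% at 30 to 50 kb, then 26.7% at 50 to 75 kb and 28.4% at 75 to 100 kb. The replicate mean over the same distances was 3.11% ± 0.54, 3.01% ± 0.95, 2.98% ± 0.94, 3.68% ± 1.12, 4.10% ± 1.11 and 4.68% ± 0.78 (SD, n = 4). Replicate 2 at 5 to 10 kb (3.39%), replicate 1 at 20 to 30 kb (4.34%) and replicate 4 at 30 to 50 kb (5.35%) were above their own shares of the whole 3R sequence. Since the gaps were found in the combined list, these values describe the lists and were not tested.

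**Figure D4:**
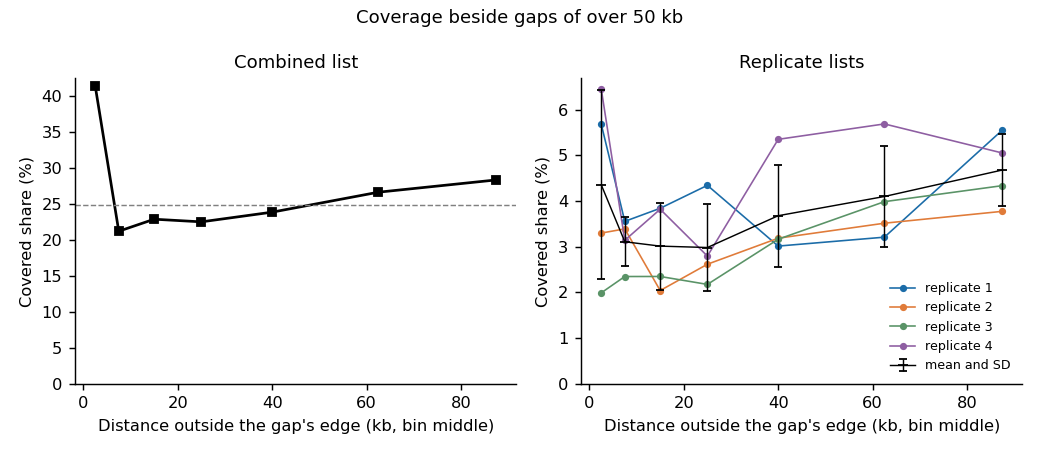
Share of bases covered (%) against distance outside the edge of gaps over 50 kb (kb, middle of the bin), for the combined list (left) and the replicate lists (right). The dashed line is the combined list's share of the whole 3R sequence with the gaps included, 24.9%, and black bars are the SD over 4 replicates. Past the first bin the combined list rises from 21.2% to 28.4%.

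Close regions formed chains. When regions no more than 5 kb apart were joined, the 3069 regions fell into 768 chains, of which 327 were single regions. The 82 chains of 10 or more regions held 1371 of them, 44.7%, in 19.6% of the sequence, with a median length of 46.1 kb. The longest, 3R:8553817-8782344 in stretch B, had 63 regions over 229 kb and was covered at 65.1% in the combined list. Replicates 1 to 4 covered it at 9.89%, 10.9%, 13.9% and 15.1%, with 13, 15, 19 and 21 regions. The next, 3R:16160038-16337236 in stretch C, had 47 regions over 177 kb, holds the most covered window and stood at 71.3%. The chains that follow were 3R:10733229-10865773 with 35 regions, 3R:14616638-14731740 with 31 and 3R:14276479-14387795 with 27.

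Widths of the combined regions ran from 1001 to 10713 bp, with a median of 1582 bp and quartiles of 1189 and 2235 bp. Regions of 3 kb or wider numbered 388, or 12.6%, and 83 reached 5 kb. Near the lower end, 16.7% were at most 1100 bp, close to the narrowest width in the list. In the replicate lists the medians were 1532, 1544.5, 1532 and 1532 bp and the widest regions 4628, 3634, 3687 and 4316 bp. The narrowest regions there were 1301 to 1303 bp, against 1001 bp in the combined list, and the quartiles averaged 1389 and 1797 bp. The medians were thus close although the lists start at different widths, and the replicate lists had no region of 5 kb or wider.

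The widest combined region, 3R:13292153-13302865 in stretch C, was covered at 20.5%, 46.4%, 34.2% and 17.9% by replicates 1 to 4. The next, 3R:4359610-4370233 (10624 bp, stretch B), was covered at 42.7%, 16.9%, 39.1% and 28.0%. At 100 kb neither lies in a dense window, but the first lies in the dense 50 kb window 3R:13260001-13310000 (68.9%) and the second in the dense 200 kb window 3R:4240001-4440000 (50.6%). Lists 1 and 4 alone covered 3R:11599398-11609073 (9676 bp), at 24.7% and 47.9%, and lists 2 and 4 alone covered 3R:3244504-3253937 (9434 bp), at 19.3% and 45.8%. The fifth, 3R:2448421-2457630 (9210 bp), at the edge of the Antennapedia complex, was covered at 22.9%, 20.7%, 12.2% and 31.4%. In no replicate did a region span any of these 5 in full.

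Regions were wider in dense windows of the combined list, with a median of 1910 bp against 1526 bp in middle and 1303 bp in sparse windows, but width is part of the covered share that ranked the windows. In replicates left out of the ranking, the median width in dense windows exceeded that in the other windows by 49, 8, 78 and 30.5 bp in replicates 1 to 4, a mean of 41.4 ± 29.6 bp (SD, n = 4). It was positive in 4 of 4 replicates, with p = 0.13 by the exact two-sided sign-flip permutation test. The median score, the authors' value for each region, was 0.60 ± 0.07 in dense and 0.59 ± 0.06 in the other windows (SD, n = 4), with a log2 ratio of 0.01 ± 0.03 (SD, n = 4), above 0 in 2 of 4 replicates (exact permutation p = 0.5). The dense windows held 144.25 ± 21.2 regions of the list left out and the sparse windows 6.25 ± 3.20 (SD, n = 4).

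Replicate lists touched 1476 of the 3069 combined regions, 48.1%, by at least 1 bp. Over all sequences the share touched was 44.2%, so 3R was close to the background. All 4 lists touched 27 regions, 0.880%, against 0.729% over all sequences. In between, 983 were touched by 1 list, 372 by 2 and 94 by 3. With an overlap of at least 50% of the combined region required, 1107 were touched by 1 list or more and 2 by all 4. Nearly all regions of replicates 1 and 4 touched the combined list, 97.7% and 97.2%, but of replicates 2 and 3 only 80.3% and 78.1% did. The high and the low shares thus each came from both pairs of experiment numbers.

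Support rose with width, and a wider region also offers more bases to touch. From the narrowest to the widest 25% of regions, 20.8%, 33.9%, 56.2% and 81.5% were touched. Regions that no list touched had a median width of 1307 bp, and those that all 4 touched had 4665 bp. Within each class of width the share touched was, in dense against middle windows, 30.7% against 19.5% in the narrowest, 45.0% against 32.7% in the second, 66.4% against 54.0% in the third and 82.9% against 80.9% in the widest. This was not tested: dense windows also hold more replicate regions, and the median width was higher in dense than in middle windows inside each class, at 3216.5 against 2910 bp in the widest. Sparse windows held only 50 regions, of which 15 were touched. Of the 27 regions touched by all 4 lists, 14 lay in dense windows and 12 in middle windows. In sparse windows there were 0, and 1 lay outside whole windows. The dense, middle, sparse and outside classes held 612, 2373, 50 and 34 combined regions. All 4 lists touched only 0.88% of the combined regions, so 0 of 50 in sparse windows says little. The 27 regions had a median width of 4665 bp, and width is part of the covered share that ranked the windows. By stretch, 5, 7, 15 and 0 of the 27 lay in A to D, which held 227, 1222, 1400 and 220 combined regions. The count was thus highest in C, but relative to the number of regions it was highest in A.

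**Figure D5:**
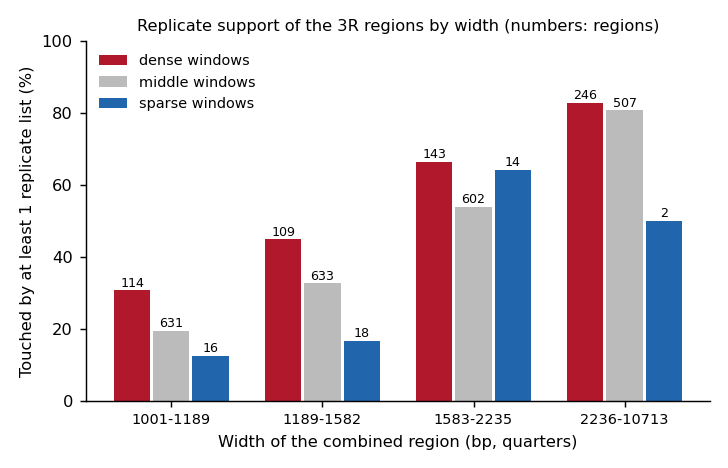
Share of combined 3R regions touched by at least 1 replicate list (%), by class of width (bp, each holding about 25% of the regions) and by dense, middle or sparse 100 kb window. Numbers above the bars count regions. The share rises with width in dense windows from 30.7% to 82.9%, and the sparse bars rest on 16, 18, 14 and 2 regions.

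Among the regions touched by all 4 lists, 3R:7972633-7975319 in stretch B had the highest mean overlap. Replicates 1 to 4 covered 52.6%, 85.3%, 95.3% and 62.6% of its 2687 bp. Only this region and 3R:1239895-1242177 in stretch A were covered by 50% or more in every list, the latter at 65.5%, 54.7%, 52.5% and 58.1%. At 3R:19307721-19309960 in stretch C the lists covered 66.0%, 18.6%, 67.1% and 94.1%, and at 3R:1749158-1753060 in stretch A 39.3%, 24.3%, 79.6% and 81.9%. Replicate 2 was the lowest in both. The same held for 3R:18793444-18795595, at 60.9%, 18.2%, 66.4% and 71.1%, and 3R:16515452-16517572, at 58.7%, 20.4%, 63.2% and 65.2%.

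Replicate 2 was the highest at 3R:16264697-16268670, in the most covered window, where the lists covered 37.1%, 85.4%, 44.3% and 32.9%. Beside it, 3R:16259121-16263785 was covered at 70.3%, 41.2%, 38.9% and 47.0%. The remaining named regions, 3R:8691567-8694788 in the longest chain and 3R:13349126-13353482 in stretch C, had mean overlaps of 49.6% and 47.7%. At the level of bases, the 4 replicate lists together covered 13.6% of the 3R sequence, and 83.5% of those bases were in 1 list only, 14.4% in 2, 1.95% in 3 and 0.13%, or 4134 bp, in all 4.

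The 4 stretches of the arm differed modestly. Stretch C, from the bithorax complex to 23 Mb, was the most covered in the mean of the replicates, at 4.22%, 3.67%, 4.48% and 5.34% in replicates 1 to 4. Its log2 ratio to the other 3 stretches was 0.26 ± 0.11 (SD, n = 4), positive in 4 of 4 replicates. Stretch A, nearest the centromere, was covered at 3.25%, 2.67%, 2.42% and 4.31%, a log2 ratio of -0.40 ± 0.24 (SD, n = 4), negative in 4 of 4. Without replicate 3, the ratio of stretch A was -0.28 (n = 3). Stretch B, at 3.86% ± 0.65, had a log2 ratio of -0.10 ± 0.06 (SD, n = 4), also negative in 4 of 4. For A, B and C the exact sign-flip permutation test gave p = 0.13, adjusted to 0.167 over the 4 stretches.

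Stretch D had no common direction. It was covered at 4.00%, 2.31%, 3.24% and 5.06% in replicates 1 to 4, against 4.01%, 3.30%, 4.00% and 4.93% in the other 3 stretches. The log2 ratio was -0.19 ± 0.26 (SD, n = 4), with exact p = 0.375. Among the higher-scoring regions it was 0.035, and without replicate 2 it was -0.09 (n = 3). In the combined list, A to D were covered at 21.2%, 24.5%, 26.8% and 20.8%, with 10.9, 12.7, 13.7 and 11.5 regions per 100 kb. Median widths were 1533, 1596, 1598.5 and 1502.5 bp, so the order of the stretches by width was their order by combined covered share.

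Coverage at the edges of the parts left out was uneven. The 200 kb before the Antennapedia complex stood at 50.3% in the combined list and at 6.74%, 6.03%, 4.13% and 11.1% in replicates 1 to 4, and the 200 kb after it at 11.7% and at 1.45%, 2.56%, 1.65% and 2.23%. The groups of values before and after the complex did not overlap, which was also seen between adjoining windows of 200 kb elsewhere. In stretch B, 3R:7640001-7840000 stood at 0% to 1.535% in the replicates and 3R:7840001-8040000 at 9.71% to 11.7%. How often adjoining windows differed in this way was not counted. Beside the bithorax complex the combined shares were 17.1% before and 20.6% after, with replicate means of 2.93% ± 1.10 and 4.09% ± 1.51 (SD, n = 4). Beside the 23 to 25 Mb block they were 33.4% before and 28.3% after, with replicate means of 5.87% ± 1.94 and 6.11% ± 2.66 (SD, n = 4).

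Set beside the bodies of the other arms used for comparison, taken without their ends and, on 2L, without 15 to 18 Mb, 3R was the most covered of these in the replicate means. The bodies of 2L, 3L and X were covered at 3.62% ± 0.76, 3.34% ± 0.60 and 1.80% ± 0.31 (SD, n = 4). The log2 ratio of 3R to 2L was 0.18, 0.23, 0.13 and 0.10 in replicates 1 to 4, a mean of 0.16 ± 0.06 (SD, n = 4). To 3L it was 0.27 ± 0.10 and to X 1.16 ± 0.12 (SD, n = 4), or 1.21-fold and 2.24-fold. All 3 ratios were positive in 4 of 4 replicates, with an exact sign-flip permutation p of 0.13, also 0.13 after adjustment over the 3 arms. The ratio to X was 0.29 among the higher-scoring regions, 0.86 with equal numbers of regions per list and 0.74 in the combined list. Regions on X also scored higher in the combined list, with a median of 0.452 against 0.390 on 3R. The shares were not corrected for the number of copies of X in the embryos, and the bearing of either point on this ratio was not tested. Parts already known to be dense were left out of 3R and of 2L. No such part was taken out of the bodies of 3L and X, so for these the leaving out was on the 3R side only.

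Widths and unevenness separated the arms less. Median width on 3R exceeded that on X by 47, 65, 50 and 40 bp in replicates 1 to 4, a mean of 50.5 ± 10.5 bp (SD, n = 4, exact permutation p = 0.13, adjusted 0.375). It exceeded that on 3L by 23.9 ± 29.5 bp and that on 2L by 8.38 ± 34.0 bp (SD, n = 4), each in 3 of 4 replicates, with exact p = 0.25 and 0.625. In the combined list the median width was 1582 bp on 3R, 1633 bp on 2L, 1515 bp on 3L and 1442 bp on X, so 2L stood above 3R there. Without replicate 2 the differences were 10.0 bp from 3L and -5.67 bp from 2L (n = 3). The contrast of dense windows to all windows in the replicate left out was 1.35 ± 0.16 on 3R, 1.60 ± 0.06 on 2L, 1.47 ± 0.11 on 3L and 1.46 ± 0.21 on X, as log2 ratios (SD, n = 4). The value of 3R was below that of 2L in 4 of 4 replicates, with differences of -0.44, -0.10, -0.15 and -0.30 in replicates 1 to 4 (exact permutation p = 0.13, adjusted 0.375). Against 3L and X it was below in 3 of 4 replicates each, with exact p = 0.375 and 0.625, so clumping at 100 kb was not shown to be particular to 3R.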

How the data were processed

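Bowtie 0.12.7 was used for alignment according to the submitters' processing notes, and coordinates are on FlyBase release 5, per the file headers. The deposited lists hold the bounds and a score for each region, the authors' own value on a scale that is not stated. The score served to rank regions within a list and to compare median scores between windows and between arms. Since the scale is not stated, the size of those score differences cannot be interpreted. The caller, its thresholds, the use of input and the combining of replicates are likewise not given in the sources used. The 4 input libraries were not analysed here. Depth is unknown.

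Covered shares are covered bases over sequence length, in windows laid from the start of each stretch, with no correction for assembly gaps or repeats. Comparisons used a log2 ratio or difference per replicate and an exact sign-flip permutation test (two-sided) over the 4 replicates, adjusted by the Benjamini-Hochberg method. The dense and sparse window measure was tested on simulated lists. Alternatives were other windows, shares of windows, scores, list lengths, overlaps and merging, and leaving out each replicate.

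Named were the 5 most and least covered places at 100 kb, 3 at 50 and 200 kb, the 5 widest regions, the 5 longest gaps and, of regions touched by all 4 lists, the 10 with the highest mean overlap; chains, edges and flanks were chosen after values were seen. The regions, rules and tests were chosen with earlier results of these data known. Gene names and sequences were not used here, since the only gene table used is on another build (Release 6). Tools were numpy 2.4.6, pandas 2.3.3 and scipy 1.17.1 under Python 3.11.15, with matplotlib 3.10.9 for the figures.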

Additional observations from a re-analysis of the deposited data

Results flagged for a closer look

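In 7 of 55 measures of 4 replicates, 1 replicate lay far from the other 3. Chance gives about 1 in 20 for values without ties, a rate that does not apply to 4 of the 7: in 3 nearly empty windows the other lists are at 0, and in 1 the other values are tied. Replicate 2 had a median width of 1544.5 bp where the others had 1532 bp each. In the sparse windows chosen without it, replicate 4 was covered at 0.75075% and the others at 0.27% to 0.32%. Replicate 3 covered 2.852% of 3R:600001-650000, replicate 4 covered 0.482% of 3R:12040001-12140000 and replicate 2 covered 1.861% of 3R:8240001-8340000, where the other 3 lists had 0%, so each of these rests on 1 region or a piece of it. Replicate 4 covered 0% of 3R:4640001-4840000 and the others 0.66% to 0.75%. Replicate 2 covered 20.4% of the region 3R:16515452-16517572 and the others 58.7% to 65.2%.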

How the results depend on the processing

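Of 102 alternative values, 90 kept their direction and, where tested, their side of the threshold, 10 moved and 2 reversed. Counted among the 102 and the 90 are the dense to all contrasts of 2L, 3L and X. These are values of other arms, not other settings for 3R. Spacing, touched regions, correlations and values of the combined list had no test, so they had no side of a threshold to keep. No test could pass 0.05 under any setting, so keeping a side says little. The reversals were stretch D against the other stretches, 0.035 on the log2 scale among regions scoring not below their list's median, and width against 2L, which ranged from -5.67 to 21.8 bp with 1 replicate left out. The median spacing was 2711.5 bp after merging and 8324 bp among the higher-scoring regions. All 4 lists touched 2 regions at an overlap of 50%, and all 3 remaining lists touched 57 without replicate 1, 51 without replicate 3 and 47 without replicate 2 or 4. At least 1 list touched 576 of the 1197 higher-scoring regions. The mean correlation between replicates was 0.571 at 50 kb and 0.718 at 200 kb. The dense to sparse log2 ratio ranged from 2.77 (windows ranked by 1 replicate, with many tied at 0, added after seeing the data) to 4.72 (region midpoints). No paired analysis was possible because H1 and input share replicate numbers but no values of input entered here. Depth is unknown, so counting error could not be given.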
